A study of Mus musculus with 16 samples.

Results

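The genes described here are 7 genes of megakaryocytes and platelets: Itga2b, Gp1bb, Gp9, Gp6, Selp, Vwf and Pf4, out of 21887 protein-coding genes examined. They were chosen by name for their role, and each locus spans the gene plus flanks of 10 kb on mm10. The series mapped where Bcl11a and Spi1, both transcription factors, sit on DNA in MPP3 cells. These are myeloid-biased multipotent progenitors, here sorted from the bone marrow of mice. The assay was CUT&Tag, in which an antibody directs a transposase to cut DNA near the bound factor. The 16 libraries formed 6 groups: WT-iMOS mice gave 3 Bcl11a libraries and 3 Spi1 libraries for each of T1 and T2, and KO-iMOS mice gave 2 Spi1 libraries for each. The terms iMOS, T1, T2 and 3m, the last in all titles, are left undefined by the labels, as are the gene meant by KO and whether replicates came from separate animals, so p-values measure the spread between these libraries only. The series addresses how Bcl11a acts in MPP3 cells.

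Megakaryocytes are the bone marrow cells that shed platelets. Platelets attach to a damaged vessel wall through surface receptors that hold von Willebrand factor and collagen, and they release stored proteins from their granules. Itga2b is the integrin alpha IIb chain (CD41), one chain of the fibrinogen receptor and also a surface marker of megakaryocyte commitment. Gp1bb and Gp9 are subunits of the von Willebrand factor receptor complex, and Gp6 is a collagen receptor. Selp is P-selectin, an adhesion molecule kept in the granule membrane, while Vwf and Pf4 (platelet factor 4) are stored granule proteins. Spi1 (PU.1) is an ETS factor of myeloid and lymphoid development, and Bcl11a is a zinc finger repressor.

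Each library was a list of peaks, and the lists differed in length. They held 2719 to 7382 peaks for Bcl11a, 5068 to 12261 for Spi1 in WT-iMOS and 6372 to 20241 for Spi1 in KO-iMOS, and 9.30% to 30.0%, 15.9% to 35.7% and 25.1% to 55.5% of all genes had a peak in these libraries. The lists give no read counts, so the depth behind them is unknown. A peak present in a small part of the cells cannot be told apart from weak binding in all of them. Among the KO-iMOS lists, peak names start with PWT for T1 but with PKO for T2. In WT-iMOS the names also change from T1 to T2, from BWG to BMG for Bcl11a and from PWG to PMG for Spi1. The labels explain none of these names, so what separates T1 from T2 is unknown in every group, and KO-iMOS values are also given by T. The narrowest peak was also wider in the KO-iMOS lists (250 to 321 bp) than in the WT-iMOS Spi1 lists (202 to 220 bp). Peak lists measure no transcripts and cannot check the sorted population. At progenitor surface genes, a peak was found in 16 of 16 libraries at Fcgr3 and in 15 at Flt3, in 7 at Ly6a, in 5 each at Cd34, Cd48 and Slamf1 and in 4 at Kit.

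The promoters of Itga2b and Pf4 are shown because called peaks cover their start sites, and that of Gp9 because the window ends 1 base before a called peak begins. Each window of 300 bases runs 5′ to 3′ on the gene's strand, from 250 bases before the start site to 50 after it (RefSeq, assembly GRCm38.p6). The windows are chr11:102469834-102470133 on the minus strand for Itga2b, chr5:90772185-90772484 on the plus strand for Pf4 and chr6:87777820-87778119 on the plus strand for Gp9. Capitals mark matches, on either strand, to the motifs searched. For Spi1 the letters searched were GAGGAA, the core that this ETS factor prefers. For Bcl11a the search used TGACCA, the core of its zinc finger site. Matches to factors of megakaryocyte development were searched as GATAA for the GATA family. The Runx family, also active in these cells, was searched as TGTGGT.
Itga2b: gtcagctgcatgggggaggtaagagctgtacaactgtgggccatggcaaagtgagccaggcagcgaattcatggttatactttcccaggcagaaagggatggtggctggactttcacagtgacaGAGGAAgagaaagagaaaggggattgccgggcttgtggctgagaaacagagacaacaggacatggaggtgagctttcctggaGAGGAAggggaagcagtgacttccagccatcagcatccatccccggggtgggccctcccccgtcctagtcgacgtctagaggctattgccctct
Pf4: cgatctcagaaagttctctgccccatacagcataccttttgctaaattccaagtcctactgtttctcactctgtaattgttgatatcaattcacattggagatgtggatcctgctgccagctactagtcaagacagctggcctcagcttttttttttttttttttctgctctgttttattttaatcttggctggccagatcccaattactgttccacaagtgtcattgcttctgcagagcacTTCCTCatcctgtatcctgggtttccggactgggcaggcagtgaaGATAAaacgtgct
Gp9: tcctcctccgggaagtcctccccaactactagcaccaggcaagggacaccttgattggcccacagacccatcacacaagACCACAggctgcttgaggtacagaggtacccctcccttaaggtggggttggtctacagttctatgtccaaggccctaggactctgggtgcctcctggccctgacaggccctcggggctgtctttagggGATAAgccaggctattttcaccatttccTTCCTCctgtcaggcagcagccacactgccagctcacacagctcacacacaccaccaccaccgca
Itga2b held GAGGAA at positions -126 to -121 and -44 to -39, counting the start site as 0. In Pf4 the reverse complement of GAGGAA stood at -8 to -3 and GATAA at 37 to 41. Gp9 held the reverse complement of GAGGAA at -15 to -10, GATAA at -43 to -39 and the reverse complement of TGTGGT at -171 to -166. No matches overlapped. Windows were found for 6 of the 7 genes, all but Vwf, and 3 of the 6 held GAGGAA, against 28.3% of 32851 windows genome-wide. GATAA was in 3 (25.4% of windows), while TGACCA was in 1, Gp1bb (13.6%), and TGTGGT in 1, Gp9 (16.8%). A match is a run of letters only and was not tested for binding.

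Peaks lay at 5 of the 7 genes and fell into 12 merged regions made of 60 peaks. Itga2b, Pf4, Vwf and Selp were called in 9, 10, 9 and 13 of the 16 libraries and Gp9 in 3, while Gp1bb and Gp6 were called in 0. Having no peak in any library was shared by 33.4% of all genes. A Bcl11a peak in at least 2 of 6 libraries was found at 4 of the 7 genes, against 25.3% of all genes. For Spi1 in WT-iMOS the number was also 4 of 7, against 33.5%, and for Spi1 in KO-iMOS (at least 2 of 4) again 4 of 7, against 49.8%. All genes were not matched to these for locus length, which ran from 20949 bp at Pf4 to 153732 bp at Vwf. The 4 Bcl11a genes were Itga2b, Pf4, Vwf and Selp, and the number rested on T1 replicates 2 and 3, the longest Bcl11a lists: without replicate 3 it was 2, and without both (a choice made after seeing the data) it was 1, Itga2b. With every list cut to the length of the shortest, 2719 peaks, the numbers were 2 of 7 for Bcl11a (14.5% of all genes), 1 for Spi1 in WT-iMOS (12.9%) and 2 for Spi1 in KO-iMOS (12.5%). Of the 5 regions with a Bcl11a peak, 5 also had a Spi1 peak in some library, as did 77.1% of the 12625 merged regions with Bcl11a genome-wide. The other 7 of the 12 had Spi1 alone, against 63.1% of all 34234 merged regions. Of the 12 regions, 5 were called in KO-iMOS libraries and in no WT-iMOS library, against 33.4% of all merged regions, and 4 rested on 1 library, against 36.8%.

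**Figure D1:**
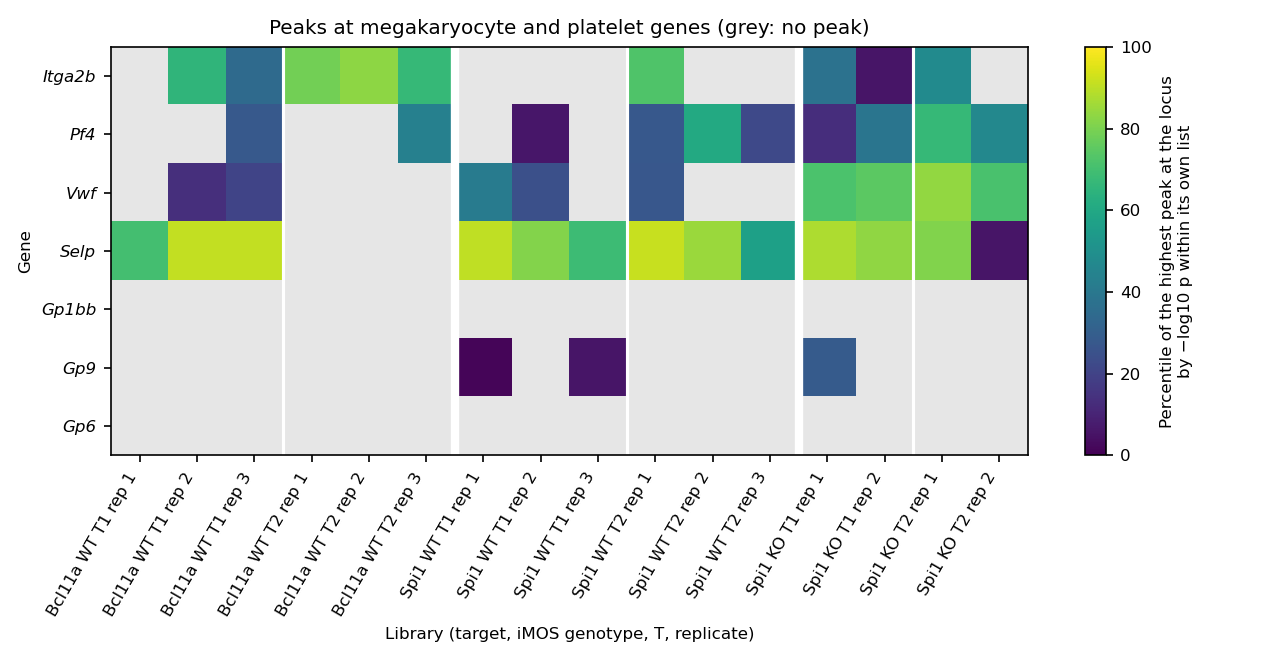
Peaks at the 7 genes (rows) in the 16 libraries (columns), coloured by the percentile of the highest peak at the locus by the deposited −log10 p within its own list; grey means no peak. Selp is coloured in all columns but the 3 Bcl11a T2 libraries. Itga2b is coloured in 5 Bcl11a, 1 WT-iMOS Spi1 and 3 KO-iMOS Spi1 libraries, and Gp1bb and Gp6 are grey throughout.

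Itga2b was the one gene of the 7 with more Bcl11a than Spi1 libraries in WT-iMOS. Bcl11a was called at its locus in 5 of 6 libraries (2 of 3 T1, 3 of 3 T2), Spi1 in 1 of 6 (0 of 3 T1, 1 of 3 T2) and Spi1 in KO-iMOS in 3 of 4 (2 of 2 T1, 1 of 2 T2). All 5 Bcl11a libraries shared a region of 847 bp over the start site, chr11:102469702-102470548, which the WT-iMOS Spi1 library and the 3 KO-iMOS libraries also had. This region lies within 10 kb of the neighbouring gene Gpatch8 as well. Of the Bcl11a peaks, only that of T2 replicate 2 reached the start site itself, and the others lay wholly upstream of it. The Spi1 peaks of the region all covered the start site. The Bcl11a peaks had deposited fold enrichments of 5.25 (T1 replicate 2), 4.20 (T1 replicate 3), 6.40 (T2 replicate 1), 7.49 (T2 replicate 2) and 5.41 (T2 replicate 3). Their percentiles by −log10 p within their own lists were 65.3, 34.5, 78.9, 83.1 and 67.1, so that 4 of the 5 stood in the upper part of their list. The Spi1 peak of WT-iMOS T2 replicate 1 had a fold enrichment of 7.62 and stood at percentile 72.5 of the longest WT-iMOS list. In KO-iMOS the percentiles were 37.5 and 5.5 in T1 and 48.0 in T2 replicate 1.

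The summits at the Itga2b start site fell on 1 base in most libraries. The summit was at base 102470108, 225 bp upstream of the start site, in 4 Bcl11a libraries and in the WT-iMOS Spi1 library, and at 102470101 in the fifth Bcl11a library. That base is near the 5′ end of the window printed above and 99 bases from the nearest GAGGAA. The 3 KO-iMOS summits lay elsewhere in the region, at 102469876, 102469969 and 102470230. A second region, chr11:102455763-102456255, lies inside the gene, with summits 13636 to 13940 bp downstream of the start site. It was called for Bcl11a in T2 replicate 3 and for Spi1 in 2 KO-iMOS libraries, replicate 1 of T1 and of T2, with fold enrichments of 4.99, 5.18 and 4.50. These peaks were low in their lists, at percentiles of 33.6, 23.9 and 9.70.

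**Figure D2:**
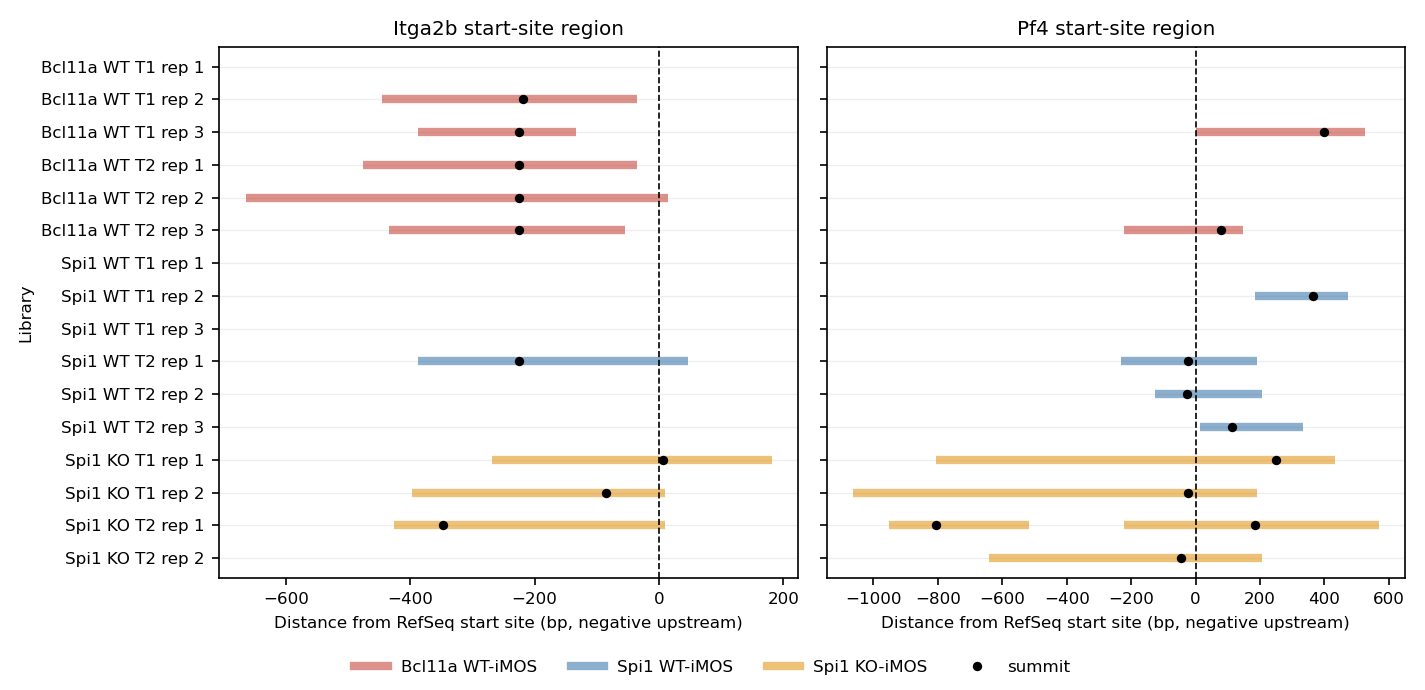
Peaks (bars) and summits (points) of each library at the Itga2b and Pf4 start sites, by distance from the RefSeq start site in bp; the dashed line is the start site. At Itga2b 4 Bcl11a summits and 1 Spi1 summit share a base 225 bp upstream, whereas the Pf4 summits are spread around the start site.

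The other surface receptor genes had few or no peaks. Gp9 had none for Bcl11a. Spi1 was called there in 2 of 3 WT-iMOS T1, 0 of 3 WT-iMOS T2, 1 of 2 KO-iMOS T1 and 0 of 2 KO-iMOS T2 libraries. The WT-iMOS peaks, in T1 replicates 1 and 3, formed a region 470 bp outside the gene, chr6:87775384-87775661, and were among the lowest of their lists (percentiles 1.30 and 5.60, fold enrichments 3.81 and 3.97). The KO-iMOS peak of T1 replicate 1 was in another place, chr6:87778120-87778505, 50 to 435 bp downstream of the start site of the printed window, at percentile 28.6 with a fold enrichment of 4.47. No library had a peak at Gp1bb (chr16:18620319-18622403, which overlaps Septin5) or at Gp6 (chr7:4362853-4397851). The nearest regions were 64717 bp from Gp1bb, called for Bcl11a in 1 library and for Spi1 in 1 KO-iMOS library, and 29366 bp from Gp6, overlapping Rdh13 and called in 1 KO-iMOS library.

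Selp had the most libraries with a peak among the 7 genes. Spi1 was called in 6 of 6 WT-iMOS libraries, as at 10.4% of all genes, and in 4 of 4 KO-iMOS libraries, and Bcl11a in 3 of 3 T1 and 0 of 3 T2 libraries. All 13 shared 1 region inside the gene, chr1:164135218-164136199, which starts 19954 bp downstream of the start site. No library had a peak at the Selp promoter window. Fold enrichments of Spi1 in WT-iMOS were 8.49, 7.31 and 5.47 in T1 and 10.5, 8.64 and 5.63 in T2, and the peaks stood at percentiles of 56.9 to 91.6 of their lists. In KO-iMOS they were 8.02 and 7.98 in T1 and 7.87 and 4.33 in T2. The peak of KO-iMOS T2 replicate 2, at percentile 5.70, was low in its list and the other KO-iMOS peaks were high, at 81.1 to 87.5. The Bcl11a peaks of T1 replicates 1, 2 and 3 had fold enrichments of 4.97, 7.07 and 7.08, at percentiles of 70.2, 91.0 and 90.9.

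Summits of the Selp region stood at 2 places. The 3 Bcl11a summits were at 164135680, 164135685 and 164135680, a span of 5 bp. Of the 10 Spi1 summits, 8 lay between 164135445 and 164135468, and the medians of these 8 and of the Bcl11a summits were 215 bp apart. The other 2 Spi1 summits, in WT-iMOS T2 replicate 1 and KO-iMOS T2 replicate 2, were at 164135680 and 164135682, at the place of the Bcl11a summits. The grouping was noticed in these values and was not tested. The Bcl11a peaks themselves were wide enough to cover both places.

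**Figure D3:**
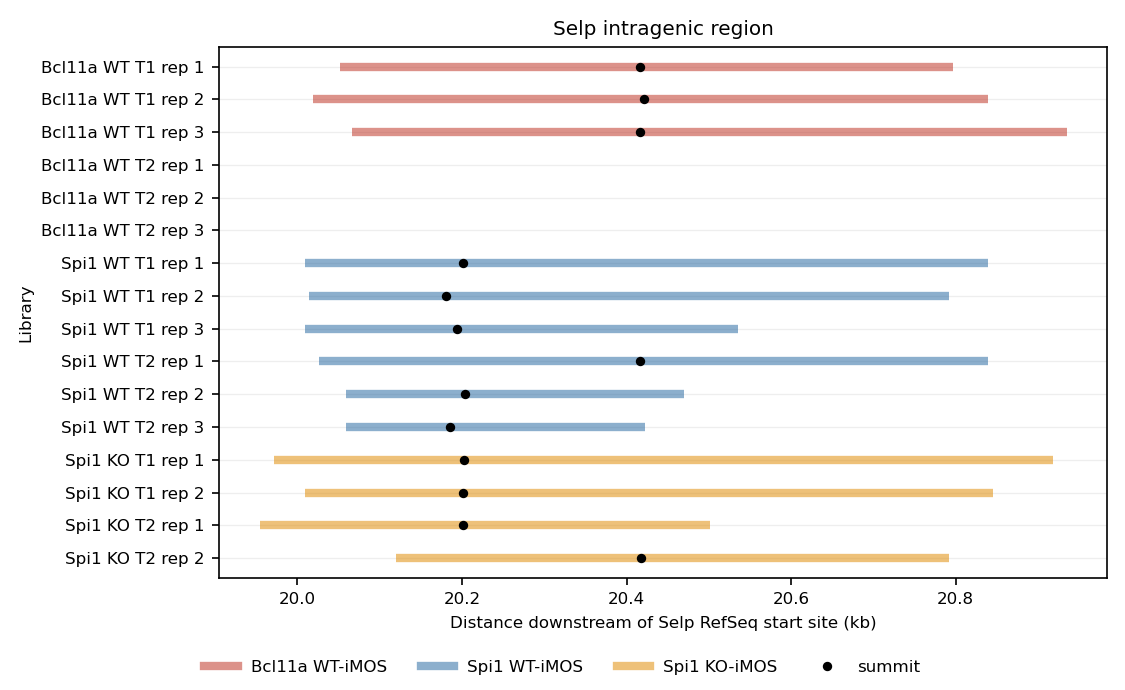
Peaks (bars) and summits (points) of each library at the intragenic Selp region, by distance downstream of the Selp start site in kb. The 3 Bcl11a T2 rows are empty, the 3 Bcl11a summits and 2 Spi1 summits stand at the right-hand place and 8 Spi1 summits at the left-hand place, with medians 215 bp apart.

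The Bcl11a calls at Selp, 3 of 3 in T1 and 0 of 3 in T2, came from lists of 4300, 5964 and 7382 peaks in T1 and of 4786, 2719 and 3287 peaks in T2. With all lists cut to 2719 peaks the counts were also 3 of 3 and 0 of 3. The part of list length was not tested beyond this, and the pattern was picked after its values were seen. A Bcl11a peak in 3 of 3 T1 and 0 of 3 T2 libraries was found at 2.19% of all genes (0.722% with lists of equal length), and the opposite pattern at 0.114% (0.279% with equal length). An exact test of 3 libraries against 3 cannot go below p = 0.1. Further regions near Selp had 1 KO-iMOS library each: chr1:164149525-164149790 inside the gene, and chr1:164151667-164151955, 1641 bp outside it and overlapping F5, the coagulation factor V gene.

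Vwf carried 4 regions, all inside the gene and within its lower-coordinate part. The locus was called for Bcl11a in 2 of 3 T1 and 0 of 3 T2 libraries, for Spi1 in 2 of 3 T1 and 1 of 3 T2 WT-iMOS libraries, and for Spi1 in 2 of 2 T1 and 2 of 2 T2 KO-iMOS libraries. The region chr6:125572439-125573399 accounted for every Bcl11a call, in T1 replicates 2 and 3 with fold enrichments of 4.12 and 4.37, at percentiles of 13.6 and 20.5. At this region Spi1 was called in WT-iMOS T1 replicates 1 and 2 and T2 replicate 1, with fold enrichments of 4.83, 4.84 and 3.98. The WT-iMOS peaks were low in their lists, at percentiles of 24.7, 24.6 and 4.80. In KO-iMOS all 4 libraries had it, with fold enrichments of 6.75 and 7.35 in T1 and 7.66 and 7.08 in T2, at percentiles of 71.3, 66.6, 78.6 and 71.4. Percentiles come from lists of different lengths and show no change between genotypes by themselves.

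The region chr6:125603328-125604519 was called for Spi1 in 1 of 3 T1 and 1 of 3 T2 WT-iMOS libraries, replicate 1 of each, and in 2 of 2 T1 and 2 of 2 T2 KO-iMOS libraries. Its KO-iMOS percentiles ran from 53.0 to 83.8 and its WT-iMOS percentiles were 41.6 and 27.1. The region chr6:125594723-125595413, was called in 2 KO-iMOS T1 libraries and 1 KO-iMOS T2 library (fold enrichments 6.62, 4.90 and 5.94). The remaining region, chr6:125587079-125587484, was called in KO-iMOS T1 replicate 1 alone (fold enrichment 4.33). Bcl11a was called at none of these 3 regions. The share of libraries called was larger in KO-iMOS in both T1 and T2, a difference not past any test. With lists of 2719 peaks the locus was called in 0 of 12 WT-iMOS libraries, 0 of 2 KO-iMOS T1 libraries and 2 of 2 KO-iMOS T2 libraries. List length moved with genotype, and its part in the result was not tested beyond these equal lists.

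**Figure D4:**
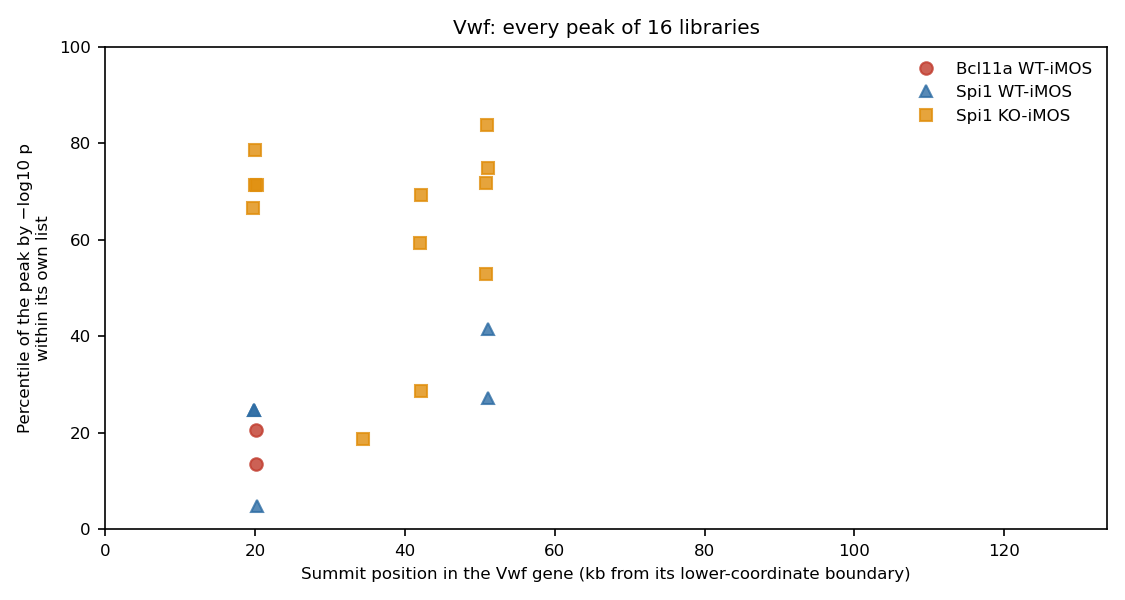
Every peak at Vwf in the 16 libraries, by summit position in kb from the gene's lower-coordinate boundary and by percentile within its own list. KO-iMOS Spi1 peaks stand at 4 positions, WT-iMOS Spi1 peaks at 2 of these and Bcl11a peaks at 1.

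Pf4 had a single region over its start site, chr5:90771371-90773004. It was called for Bcl11a in 1 of 3 T1 and 1 of 3 T2 libraries, for Spi1 in 1 of 3 T1 and 3 of 3 T2 WT-iMOS libraries, and in 2 of 2 T1 and 2 of 2 T2 KO-iMOS libraries. Fold enrichments were 4.83 and 5.19 for Bcl11a (replicate 3 of T1 and of T2) and 4.20 (T1 replicate 2), 4.55, 6.53 and 4.97 (T2 replicates 1, 2 and 3) for Spi1 in WT-iMOS. In KO-iMOS they were 3.70 and 5.19 in T1 and 5.62 in T2 replicate 2, while T2 replicate 1 had 2 peaks, at 5.87 and 4.34. Most of these peaks were in the lower part of their lists, and the highest percentiles were 60.7 in WT-iMOS T2 replicate 2 and 67.0 in KO-iMOS T2 replicate 1. The WT-iMOS Spi1 summits lay at position 365 in T1 replicate 2 and at -25, -26 and 113 in T2 replicates 1, 2 and 3. The KO-iMOS summits lay at 250 and -22 in T1, at -805 and 186 in T2 replicate 1 and at -45 in T2 replicate 2. Of these 9 summits, those at -25, -26, -22 and -45 fell inside the printed window, 17, 18, 14 and 37 bases from its GAGGAA match, and the other 5 fell outside it. The Bcl11a summits were at 398 and 79 bases downstream of the start site. Ppbp, the gene of another platelet chemokine, lies 2372 bp away, and the region is within 10 kb of it and of Cxcl5, so it cannot be assigned to Pf4 alone. With lists of 2719 peaks the locus was called in 1 of 6 Bcl11a, 1 of 6 WT-iMOS Spi1 and 0 of 4 KO-iMOS libraries.

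No gene of the 7 differed between groups in a test across all genes. For Bcl11a against Spi1 in WT-iMOS, Itga2b stood at 5 of 6 against 1 of 6 libraries (Fisher's exact test, two-sided, p = 0.0801, Benjamini-Hochberg adjusted over 21887 genes 0.966). Selp stood at 3 of 6 against 6 of 6 (Fisher's exact p = 0.182, adjusted 1). A count as lopsided as that of Itga2b, with Bcl11a in at least 5 libraries and Spi1 in at most 1, was found at 0.42% of all genes, and more Bcl11a than Spi1 libraries at 14.5%, a pattern picked here after its values were seen. With lists of equal length Itga2b stood at 4 of 6 against 0 of 6 (Fisher's exact p = 0.0606, adjusted 1), a pattern met or exceeded at 1.66% of all genes. Its unadjusted Fisher's exact p fell to 0.0152 without Bcl11a T1 replicate 1 or without Spi1 WT-iMOS T2 replicate 1 (adjusted 0.351 and 0.370). Fisher's exact test called 0 genes in either direction (smallest adjusted p = 0.162), while 59 genes (0.27%) favoured Bcl11a and 798 (3.65%) favoured Spi1 before adjustment (threshold 0.05).

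For Spi1 in KO-iMOS against WT-iMOS, 3 of the 7 genes, Itga2b, Pf4 and Vwf, had a peak in a larger share of KO-iMOS libraries, as did 46.4% of all genes. A smaller share was found at 1, Gp9, as at 9.55% of all genes. Vwf stood at 4 of 4 against 3 of 6 (Fisher's exact p = 0.200, adjusted 0.813) and Itga2b at 3 of 4 against 1 of 6 (Fisher's exact p = 0.190, adjusted 0.813). Pf4 stood at 4 of 4 against 4 of 6 (Fisher's exact p = 0.467, adjusted 1). A Spi1 peak in 4 of 4 KO-iMOS libraries, as at Pf4, Vwf and Selp, was found at 22.3% of all genes. The unadjusted Fisher's exact p of Itga2b was 0.0476 without Spi1 WT-iMOS T2 replicate 1 (adjusted 0.364) and the same without KO-iMOS T2 replicate 2 (adjusted 0.432). With KO-iMOS T1 alone the Fisher's exact p of Itga2b was 0.107 and with KO-iMOS T2 alone 0.464. Cutting all lists to 2719 peaks took away every Spi1 call at Itga2b, whatever the genotype. Its difference in share, KO-iMOS less WT-iMOS, thereby fell from 0.583 to 0. This difference was also smaller with 50 kb flanks (0.167) and at a −log10 q of at least 5 (0.333). Fisher's exact test called 0 genes (smallest adjusted p = 0.264). Before adjustment, 1829 genes (8.36%) were past 0.05 with the larger share in KO-iMOS and 194 (0.886%) with the larger share in WT-iMOS. For T2 against T1, permuted within target and genotype, Selp had 5 of 8 T2 and 8 of 8 T1 libraries (exact permutation p = 0.1, adjusted 1). With lists of equal length its exact permutation p was 0.0167 (adjusted 1). The only Selp calls that changed under this cut were those of Spi1 in KO-iMOS T2, from 2 of 2 to 0 of 2. The KO-iMOS T2 replicate 1 peak ranked 2821 of 14882, just past the cut of 2719. The Bcl11a calls did not change. The exact permutation test over all genes called 0 genes, and before adjustment 9 (0.0411%) were past 0.05 with more T2 libraries and 194 (0.886%) with more T1 libraries. These comparisons reuse the same WT-iMOS Spi1 libraries and are not independent of each other.

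Another 67 megakaryocyte genes were taken as a wider list in 4 classes. Of them 29 had Bcl11a and 39 had Spi1 in at least 2 WT-iMOS libraries, and 53 had Spi1 in at least 2 KO-iMOS libraries. These were 43.3%, 58.2% and 79.1% of the 67, against 25.3%, 33.5% and 49.8% of all genes. The medians were 1, 2 and 3 libraries against 0, 0 and 1 over all genes. The counts of the wider list were not repeated with lists of equal length. The 15 transcription factors and cofactors were called most often: 10 had Bcl11a, 13 had Spi1 in WT-iMOS and 14 in KO-iMOS. The classes were not matched for locus length to each other or to all genes. Some of their genes are long, such as Runx1 (chr16:92601466-92826074), and the part of length was not tested. Runx1 had a peak in 16 of 16 libraries, Lyl1 and Zfpm1 in 14 and Fli1, an ETS factor of megakaryocyte maturation, in 13. Of 16 cytoskeleton and signalling genes, 8, 10 and 14 were called, and Fyb, Plcg2, Ptgs1 (cyclooxygenase 1) and Tln1 (talin, which activates integrins) had a peak in every library. Of 17 granule genes, 7, 8 and 12 were called, led by Tgfb1 with 16 libraries and Nbeal2, needed to form alpha granules, with 15, and followed by F13a1 and Plek with 12. Of 19 surface receptor genes, 4, 8 and 13 were called, led by Tbxa2r, the thromboxane receptor, with 14, P2rx1 with 13, Itga6 with 12 and Gp1ba, the partner of Gp1bb, with 11. At Gp1ba Bcl11a was called in 1 of 6 and Spi1 in 6 of 6 WT-iMOS libraries.

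**Figure D5:**
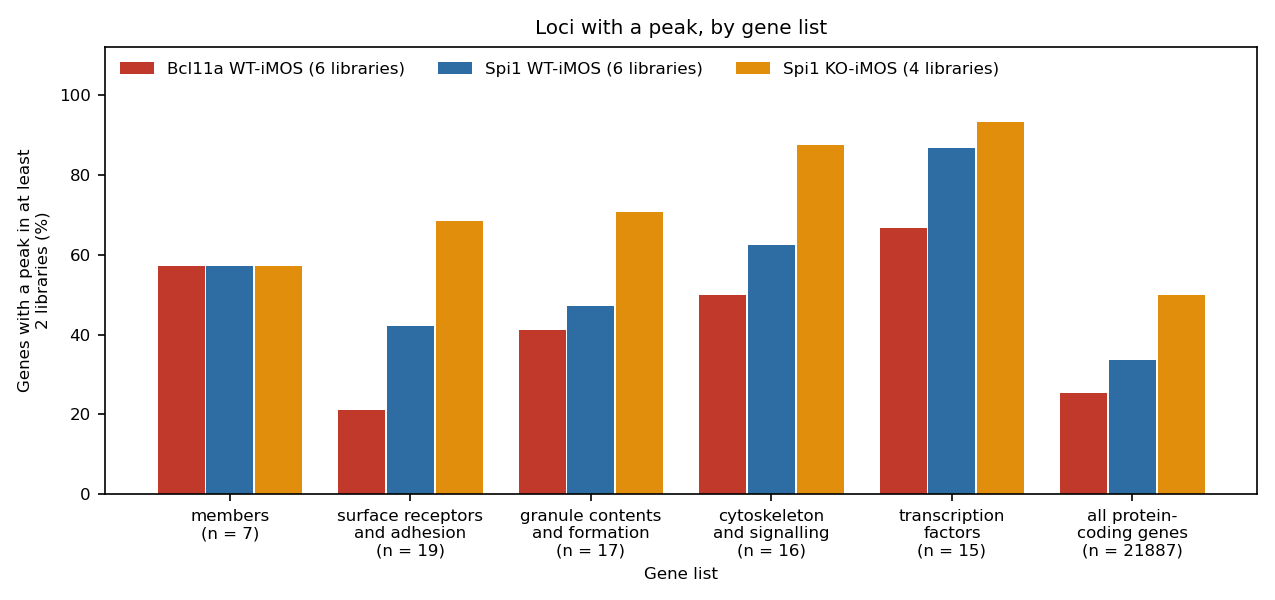
Share of genes called in 2 or more libraries (%), for the 7 genes, the 4 classes of the wider list and all protein-coding genes, by target and genotype. The 7 genes stand at 57.1% in each, and the transcription factors at 66.7%, 86.7% and 93.3%, against 25.3%, 33.5% and 49.8% of all genes.

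No gene of the wider list passed the adjusted tests. At an unadjusted Fisher's exact p under 0.05, 5 of the 67 had more Spi1 than Bcl11a libraries, against 3.65% of all genes: Fermt3 (kindlin 3, an integrin activator; 6 against 0), Gp1ba, P2ry12 (an ADP receptor), Angpt1 and Meis1. In the genotype comparison 4 of the 67 were past it with the larger share in KO-iMOS, against 8.36% of all genes, and 0 with the larger share in WT-iMOS, against 0.886%. The 4 were P2ry1 (another ADP receptor; 3 of 4 against 0 of 6), Gucy1a1 and Lat (the same counts) and Rgs18 (4 of 4 against 1 of 6). The other genes named for their genotype difference were Clec1b (4 of 4 against 2 of 6), Nbea (4 of 4 against 2 of 6), Slc35d3 (3 of 4 against 1 of 6), Mafg (3 of 4 against 1 of 6) and Ets1 (4 of 4 against 3 of 6). In the T comparison 1 of the 67 was past it with more T1 libraries, against 0.886% of all genes: Srgn, the granule proteoglycan serglycin. Its exact permutation p over all 16 libraries was 0.01 (adjusted 1). Bcl11a was called at Srgn in 3 of 3 T1 and 0 of 3 T2 libraries. Spi1 was called there in 3 of 3 T1 and 1 of 3 T2 WT-iMOS libraries and in 2 of 2 T1 and 1 of 2 T2 KO-iMOS libraries. Lat, Angpt1, P2ry12, Meis1, Fermt3 and Srgn fell outside the rule for named genes and were chosen after their values were seen.

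By identity of presence or absence over the 16 libraries, the gene of the wider list most like Selp was Fli1, with the same call in 16 of 16 libraries. Ppbp matched Pf4 in 16 of 16 through the region they share. Vwf was matched in 14 of 16 by Clec1b and Ets1, and Itga2b in 13 of 16 by Cd9 and Gfi1b. Gp9, with 3 libraries called, was matched in 14 of 16 by 6 genes, among them Cd226, Cd63 and Esam. Cd226, Cd63 and Esam were each called in 1 library, of KO-iMOS T1, so their match to Gp9 is mostly shared absence of a peak. All these matches are descriptions over libraries of unequal list length. The share of all genes that match as well was not counted.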

How the data were processed

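The CUT&Tag libraries came from a commercial kit (per the labels) and were grouped by target, genotype and T from their titles. The authors deposited 1 narrowPeak list per library. Per the submitters' processing notes, the tools were Bowtie2, SAMtools and MACS2 on mm10, with no versions stated. Whether a control library entered peak calling was not given in the sources used here. For every peak the authors deposited a whole-number score, an enrichment ratio (fold), −log10 p, −log10 q and a summit offset. These are the authors' values, used only to describe, rank or filter peaks within a list. Every deposited −log10 q was above 2, so weaker signal is not seen. No read counts were used, so depth is unknown and no interval is given.

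Peaks on assembled chromosomes (130097 of 131939) were joined into regions on an overlap of 1 bp or more. The most identical intervals in any pair of lists was 58. Gene positions came from RefSeq on GRCm38.p6, without exons or introns. Presence of a peak was compared by two-sided Fisher's exact tests, and T2 against T1 by exact permutation within target and genotype, with Benjamini-Hochberg adjustment over all genes. Analyses used Python 3.11.15, pandas 2.3.3, matplotlib 3.10.9, scipy 1.17.1 and numpy 2.4.6. Of the Fisher's exact tests, only that of KO-iMOS against WT-iMOS was run on simulated calls. These were drawn independently for each library, without differences in list length. The permutation test was checked against full enumeration. All 7 genes are named. From each class of the wider list, the 4 genes with the most libraries and the 2 with the largest genotype difference are named. The genes, lists and tests were chosen with earlier results of these data known. Alternatives were other flanks (2 kb and 50 kb), a −log10 q of at least 5, lists of equal length, summits only, merging within 200 bp, leaving out libraries, a replicate block and strata by T.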

Additional observations from a re-analysis of the deposited data

How the results depend on the processing

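Each count rests on peaks past a caller's threshold, and the lists differed in length. The number of the 7 genes with Bcl11a in at least 2 libraries was 4 (25.3% of all genes). It was 2 at a −log10 q of at least 5 (18.2% of all genes) and 2 with lists of equal length (14.5%). Without Bcl11a T1 replicates 2 and 3 together it was 1. Leaving out 1 library at a time gave 2 to 4, with 2 without T1 replicate 3. The number for Spi1 at a −log10 q of at least 5 was 3 in WT-iMOS (27.8% of all genes) and 4 in KO-iMOS (42.7%). With lists of equal length the number for Spi1 was 1 in WT-iMOS (12.9%) and 2 in KO-iMOS (12.5%), and the merged regions fell from 12 to 6. Under every alternative run, 0 of the 7 genes passed an adjusted threshold in any of the 3 comparisons. No other gene passed either. The smallest adjusted Fisher's exact p of any gene was 0.101 for Bcl11a against Spi1 and 0.214 for the genotypes. With so few libraries these outcomes therefore show nothing particular to the 7 genes. The direction of the difference in share of libraries turned, with no test passed either way, for Gp9 in KO-iMOS less WT-iMOS (0.167 with 50 kb flanks and with KO-iMOS T1 alone, 0.250 at a −log10 q of at least 5, and -0.333 to 0.050 on leaving out 1 library at a time, above 0 without Spi1 WT-iMOS T1 replicate 1 or 3). It also turned for Pf4 in that comparison (-0.167 with lists of equal length) and, in T2 less T1, for Itga2b (-0.125 with 50 kb flanks) and Vwf (0.250 with lists of equal length). Same-numbered libraries of Bcl11a and Spi1 did not deviate together, with correlations of -0.110 to 0.002 over 6 pairs. Over 4 pairs of the genotypes the correlations were -0.007 to 0.175, with 1 pair past the limit of 0.1. Differently numbered libraries also passed this limit, at up to 0.107 for Bcl11a with Spi1 and 0.112 for the genotypes. The labels state no pairing, and the numbers were not taken as pairs. With a replicate block 0 of the 7 genes were called in either comparison, nor was any other gene. The block could not call a gene by genotype, since 4 pairs cannot reach 0.05 even before adjustment.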
